A study of Rattus norvegicus with 19 samples.

Results

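Rat cortex treated with the cytokine TGF-β1 was compared with rat cortex treated with albumin at 3 matched times, on 6 of the 19 arrays of the series. In each animal, an adult male Wistar rat, the somatosensory cortex was perfused with artificial cerebrospinal fluid that carried 1 agent, and whole-tissue RNA was hybridised to an Affymetrix expression array. The TGF-β1 animals received 10 ng/ml of the cytokine and were taken at 8, 24 and 48 h. The albumin animals received 0.1 mM bovine serum albumin, which the labels set at 25% of the level in serum, and were taken at the same times. Each agent and time had 1 array, so no time point has a replicate. Arrays at 7, 24 and 48 h after sodium deoxycholate, a detergent-like bile salt given at 2 mM to open the blood-brain barrier, entered only the estimates of time and of spread. A sham-operated animal at 24 h is quoted as background and entered no test. A second set of animals, all at 24 h, serves below as a measure of the spread between animals: 4 received albumin with blockers of the TGF-β receptors (an antibody to the type 2 receptor at 50 µg/ml and the kinase inhibitor SB431542 at 100 µM), 3 received albumin and 2 were sham-operated.

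TGF-β1 is secreted in a latent complex and, when released, binds a receptor pair whose kinase phosphorylates SMAD transcription factors, which raise targets such as the ID genes and the inhibitory Smad7. In the brain it is known to restrain inflammatory genes of microglia and other phagocytes and to be made by astrocytes after injury. Albumin is kept out of the healthy brain by the vessel wall; after the barrier opens it reaches astrocytes, which take it up in part through TGF-β receptors. The title of the series ties albumin, TGF-β1 and barrier opening to the process by which cortex becomes epileptic, and the comparison asks how the responses to these agents differ.

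Of 14224 genes with a probe set that names them alone, 10022 passed the filter, a log2 signal above 4 on 2 or more of the 10 arrays of set 1, and were tested. Signals are log2 values made by the authors with GCRMA, and differences are TGF-β1 minus albumin. The same-time TGF-β1 and albumin arrays correlated at 0.984, 0.983 and 0.98 across genes at 8, 24 and 48 h. The median signal of the tested genes was 8.12 to 8.164 on the TGF-β1 arrays and 8.073 to 8.125 on the albumin arrays. Markers of cortex were all read: 9 of 9 neuron markers, 7 of 7 astrocyte markers and 5 of 5 measured oligodendrocyte markers exceeded 4 on at least 1 of the 6 arrays. Of the markers of neighbouring tissue, 0 of 3 for choroid plexus and 6 of 7 for meninges did so.

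No gene passed in limma at an adjusted p under 0.05 (percent called 0), where the smallest adjusted p was 0.493. At an unadjusted p under 0.05 there were 877 genes (8.75%), of which 571 were higher with TGF-β1 (5.7%) and 306 lower (3.05%). That tilt came with the level of the arrays: with array medians made equal, 868 genes reached an unadjusted p under 0.05, 414 higher and 454 lower, so the share of higher genes was 47.7% in place of 65.1%. Every difference below is therefore a value that missed the threshold of the test, and its direction is a description of these 6 arrays. Because RNA came from whole tissue, fewer cells of a type and less RNA per cell cannot be told apart.

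At single times, 76 genes were at least 2-fold higher with TGF-β1 at 8 h (0.758%) and 140 at least 2-fold lower (1.4%). At 24 h the counts were 121 higher (1.21%) and 190 lower (1.9%), and at 48 h 204 higher (2.04%) and 125 lower (1.25%). Lower genes outnumbered higher ones at 8 and 24 h. At 48 h the balance turned with the level of the arrays: with array medians made equal, 154 genes were at least 2-fold higher and 160 lower. Taken in either direction, 2.16%, 3.1% and 3.28% of the genes were 2-fold apart at 8, 24 and 48 h. Animals of the second set that had received the same treatment give a yardstick for these shares. Pairs of animals with albumin and blockers were 2-fold apart in 1.47% to 3.32% of 10333 genes, the pair of sham animals in 1.83%, and albumin animals 1 and 3 in 2.64%. The other pairs, which hold albumin animal 2, reached 12.6% and 11.1%; that array stood apart from the rest of its set. At every time the TGF-β1 and albumin arrays were thus no further apart than some pairs of animals of 1 treatment. Most of the 2-fold genes belonged to 1 time. Of the lower ones, 91, 131 and 89 were so at 8, 24 or 48 h alone, whereas 41 were lower at both 8 and 24 h, 28 at both 24 and 48 h and 18 at both 8 and 48 h. The plot of these shares sets the 3 comparisons beside the 10 pairs of animals.

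**Figure D1:**
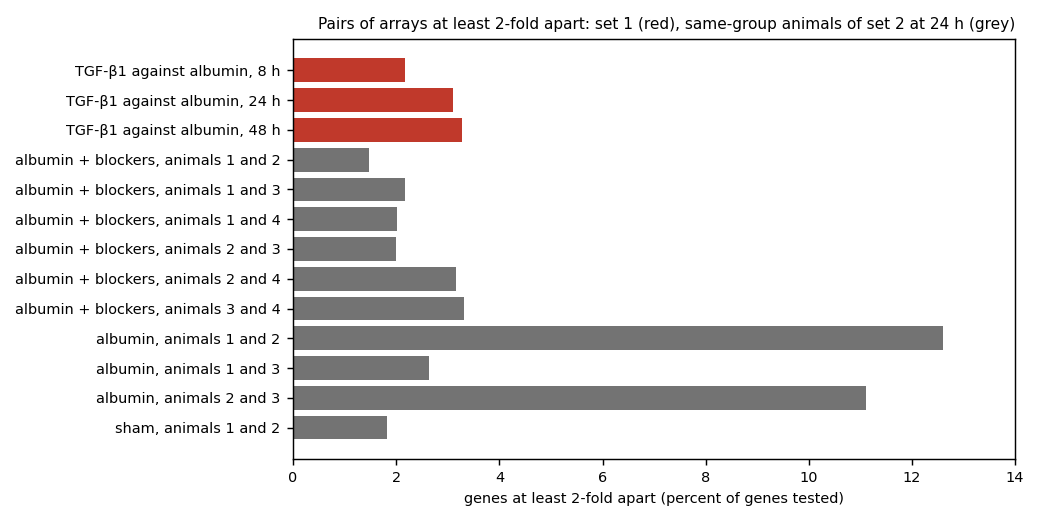
Share of genes at least 2-fold apart, in percent of the genes tested, between the TGF-β1 and albumin arrays at each time (red, set 1) and between animals of the same treatment at 24 h (grey, set 2). The red bars lie at 2.16%, 3.1% and 3.28%, within the span of the grey bars, which run from 1.47% to 12.6%.

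In all, 2384 genes were higher with TGF-β1 at each of the 3 times (23.8%) and 1713 lower at each (17.1%). At least 2-fold at all 3 times was reached by 1 higher gene (0.00998%) and 10 lower genes (0.0998%). The 10 are Fosb, Slfn4, Angpt2, Ccl7, Ptges, Ccl6, Slpi, Bcor, Colgalt2 and Cd14, and several of them act in inflammation. They were singled out for their values at all 3 times, so that the albumin and TGF-β1 signals of a time do not overlap is a result of that choice. For each of the 10, the mean of the TGF-β1 arrays lay nearer to the sham signal than the mean of the albumin arrays did. In 8 of them the sham signal was itself under the filter level of 4. Against a sham signal that low, the agent with the lower signal is nearly bound to be the nearer. This order thus follows largely from the choice of the genes and is no separate result.

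Chemokines recruit leukocytes into injured tissue. Ccl7, which attracts monocytes, had log2 signals of 3.17, 3.28 and 4.42 with TGF-β1 at 8, 24 and 48 h, against 4.93, 6.18 and 6.83 with albumin and 2.24 in the sham. Its signal was highest at 48 h with either agent, and the mean difference was −2.36 ± 0.61 (SE; limma adjusted p = 0.493). Ccl6, a CC chemokine of myeloid cells known in rodents, had 5.08, 3.10 and 6.61 with TGF-β1, against 6.11, 6.70 and 7.93 with albumin. The widest gap was at 24 h, where the TGF-β1 array stood near the sham signal of 2.57. Ccl2, the monocyte chemokine next to Ccl7 in the same family, had 8.46, 8.02 and 8.40 with TGF-β1, against 9.73, 10.13 and 9.31 with albumin and 2.84 in the sham. Ccl2 was thus far above the sham with both agents and lower with TGF-β1 at each time, with differences of −1.27, −2.11 and −0.91 and a mean difference of −1.43 ± 0.44. Cd14, the co-receptor through which phagocytes sense lipopolysaccharide, had 6.61, 7.36 and 6.66 with TGF-β1, against 7.64, 8.36 and 8.51 with albumin and 2.18 in the sham. It too was high with both agents and lower on every TGF-β1 array (mean difference −1.30 ± 0.41).

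Ptges, the inducible synthase that makes prostaglandin E, had 8.09, 3.56 and 4.13 with TGF-β1, against 9.27, 6.33 and 7.24 with albumin. At 24 h the TGF-β1 signal was close to the sham signal of 3.35 while the albumin signal was not, and the differences were −1.18, −2.77 and −3.12 at 8, 24 and 48 h. Slpi, an inhibitor of leukocyte proteases, had 5.70, 6.10 and 7.02 with TGF-β1, against 8.49, 7.67 and 8.32 with albumin and 2.72 in the sham. Here the gap was widest at 8 h and the TGF-β1 signal approached that of albumin with time. Slfn4, a Schlafen gene of rodent myeloid cells, was under the filter level on all TGF-β1 arrays, with 2.28, 2.24 and 2.25, against 6.25, 6.12 and 4.04 with albumin. Over all times its mean difference was −3.21 ± 1.10 (limma adjusted p = 0.548). Without the 3 arrays of 48 h it was the 1 gene with an adjusted p under 0.05 (mean difference −3.93, adjusted p = 0.0119). In that fit the albumin arrays alone were above the filter level, since the deoxycholate arrays of 7 and 24 h had 2.48 and 2.32. On the deoxycholate array of 48 h, which that fit leaves out, Slfn4 had 6.33.

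Fosb, a subunit of the AP-1 transcription factor that neuronal activity induces, had the largest mean difference of the 10, −3.64 ± 0.85. Its signals were 3.54, 2.56 and 2.67 with TGF-β1, against 6.57, 7.31 and 5.82 with albumin and 3.37 in the sham. All TGF-β1 arrays lay near or under the sham and all albumin arrays well above it. That sham is 1 array, and the sham animals of the second set averaged 5.26 for Fosb. Some of the 10 genes varied widely between animals of 1 treatment. Among the albumin animals of the second set the standard deviation was 2.73 for Fosb, 2.18 for Slfn4 and 1.86 for Ccl7, though 0.58 for Angpt2. Angpt2, the antagonist of the endothelial receptor Tek that loosens vessels, had 4.87, 3.72 and 4.68 with TGF-β1, against 6.92, 8.19 and 6.03 with albumin, and 3.05 in the sham. Colgalt2, an enzyme that adds galactose to collagen, had the smallest p of all same-direction genes of at least 2-fold mean size: 4.60, 4.94 and 5.43 with TGF-β1, against 5.70, 6.63 and 6.79 with albumin. With a mean difference of −1.38 ± 0.18 it still missed the threshold (adjusted p = 0.493). The BCL6 corepressor Bcor, named after its values were seen, had 6.61, 7.03 and 7.25 with TGF-β1, against 7.91, 8.74 and 8.65 with albumin and 7.20 in the sham. In the other direction stood Eva1a alone, a gene of autophagy and cell death, with 6.44, 4.49 and 4.88 with TGF-β1, against 5.20, 3.42 and 3.47 with albumin and 3.99 in the sham.

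**Figure D2:**
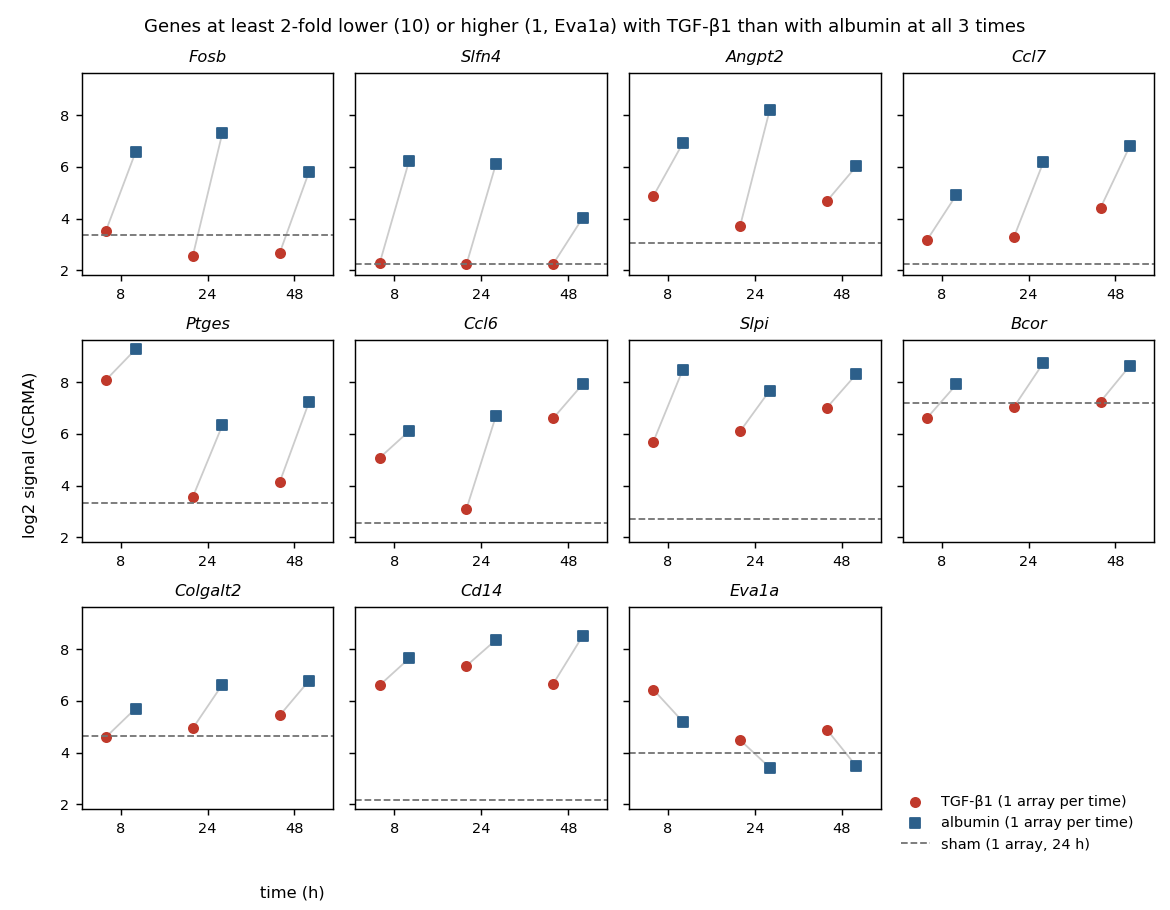
Log2 signal of the 11 genes at least 2-fold apart at all 3 times, against time in hours; red circles are TGF-β1 arrays, blue squares albumin arrays (1 array each) and the dashed line is the 1 sham array. In the first 10 panels the red circle lies below the blue square at every time, and in the panel of Eva1a above it.

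The rule for naming genes took 12 lower and 10 higher genes with the same sign at all 3 times and a mean difference of at least 1 in size, by smallest p. The lower pool had 61 genes, the higher pool only these 10. Besides genes already described, the lower ones were led by Plin2, a coat protein of lipid droplets, with 3.77, 5.80 and 7.43 with TGF-β1, against 6.05, 7.83 and 8.27 with albumin (mean difference −1.71 ± 0.29). Its signal was higher at each later time with either agent, and lower with TGF-β1 at all 3 times. Ano6, a membrane scramblase, had 7.02, 7.52 and 7.80 with TGF-β1, against 8.06, 8.74 and 8.63 with albumin. Clec7a, the phagocyte receptor for fungal glucan, had 2.27, 3.06 and 5.35 with TGF-β1, against 3.68, 4.47 and 6.17 with albumin. Fgl2, a secreted fibrinogen-like protein of immune cells, had 7.51, 7.37 and 7.65 with TGF-β1, against 9.43, 8.21 and 8.60 with albumin and 3.72 in the sham. For each of these 4 genes the albumin array was above the TGF-β1 array at every time, with differences of −0.81 or further below 0. The phospholipase Pla1a (mean difference −1.08 ± 0.22), the coactivator Ppargc1b (−1.04 ± 0.23) and the adhesion receptor Pvr (−1.32 ± 0.30) completed the group with the pseudogene Brcc3-ps7 (−1.13 ± 0.21). The signal of Brcc3-ps7 varied widely between animals of 1 treatment. In the second set its standard deviation was 3.71 with albumin and blockers and 4.04 with albumin, though 0.041 in the sham animals.

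The 10 higher genes were led after Eva1a by Paqr6, a membrane progestin receptor, with 6.99, 6.46 and 6.39 with TGF-β1, against 6.24, 5.40 and 5.15 with albumin (mean difference 1.02 ± 0.22). P2ry12, the purinergic receptor of resting microglia, had 8.21, 8.09 and 10.01 with TGF-β1, against 7.21, 6.02 and 9.81 with albumin and 8.88 in the sham. At 8 and 24 h the albumin arrays were further below the sham than the TGF-β1 arrays, and by 48 h both agents were above it. Sox17, a transcription factor of endothelium, had 6.38, 6.38 and 7.23 with TGF-β1, against 4.44, 4.55 and 6.92 with albumin and 6.75 in the sham. Its order over time was like that of P2ry12, with a wide gap at 8 and 24 h and a gap of 0.30 at 48 h. Prom1, a membrane protein of glial and stem cells, had 7.05, 7.36 and 8.33 with TGF-β1, against 5.82, 6.11 and 7.74 with albumin and 8.69 in the sham. The Wnt effector Tcf7 (mean difference 1.04 ± 0.37), the receptor Adgrv1 (1.22 ± 0.40), the phospholipase Pla2g4e (1.01 ± 0.31), the N-acetyltransferase Nat8f5 (1.34 ± 0.53) and Cfap144 were the others.

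Over the 23 tested of 34 genes of cytokines, chemokines and NF-kappaB, 22 had a lower mean with TGF-β1 and 14 were lower at all 3 times, against 17.1% of all genes. The median of their mean differences was −0.78, where that of all tested genes was 0.0315. By time the list median was −0.65 at 8 h, −0.65 at 24 h and −0.12 at 48 h. At least 2-fold lower were 8, 9 and 4 genes, where 1.4%, 1.9% and 1.25% of all genes were. At each time 0 genes of the list were at least 2-fold higher. Il1b, the central inflammatory cytokine, had 3.72, 3.67 and 3.48 with TGF-β1, against 5.69, 6.09 and 3.62 with albumin and 3.59 in the sham. It was thus near the sham on all TGF-β1 arrays and raised above it on the albumin arrays of 8 and 24 h. Among the albumin animals of the second set the standard deviation of Il1b was 3.17. Il6, another acute cytokine, had 6.55, 2.37 and 2.36 with TGF-β1, against 7.95, 2.41 and 2.36 with albumin, so the 8 h arrays alone were far from the sham signal of 2.33. The neutrophil chemokine Cxcl1, named after its values were seen, had 5.94, 2.62 and 2.61 with TGF-β1, against 6.85, 5.44 and 2.72 with albumin. Its albumin array of 24 h remained high where the TGF-β1 array had reached the sham level of 2.502. Nfkbiz, an NF-kappaB cofactor, had a mean difference of −0.89 ± 0.24 and Nfkb1, a subunit of NF-kappaB, one of −0.47 ± 0.16. None of the 23 passed.

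Of the neutrophil markers, the 2 measured moved with these genes. S100a8 and S100a9, the calcium-binding proteins that fill neutrophils, averaged 7.95, 4.96 and 4.26 with TGF-β1 at 8, 24 and 48 h, against 9.88, 6.88 and 4.21 with albumin and 4.12 in the sham. At 8 and 24 h the differences of S100a8 and S100a9 ran between −1.68 and −2.17 log2 units, and at 48 h both genes were near the sham with either agent. Of the 3 neutrophil markers, the remaining Mpo had no probe set naming it alone. On the longer list of 16 neutrophil and lymphocyte genes only S100a8 and S100a9 were tested. Its neutrophil genes Mmp8, Cxcr2 and Csf3r were below the filter. Red cell markers averaged 9.57, 9.11 and 8.77 with TGF-β1, against 10.3, 9.25 and 8.84 with albumin. The part of either cell type in the differences of the cytokine genes was not tested.

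The largest differences of the comparison were in interferon response genes at 8 h and came from the albumin array of that time. Interferons act through the STAT and IRF factors, which bind an element of repeated GAAA in the promoters of antiviral genes. Cxcl10, a chemokine for activated T cells, had 2.19, 1.97 and 1.96 with TGF-β1 at 8, 24 and 48 h, against 8.37, 1.97 and 1.97 with albumin, and 1.95 in the sham. The albumin array of 8 h stood alone, with a difference of −6.18 at 8 h and differences of 0.00 and −0.01 later. Isg15, the ubiquitin-like antiviral protein, had 3.15, 5.51 and 3.98 with TGF-β1, against 9.26, 5.49 and 4.72 with albumin. Cxcl11, which shares its receptor with Cxcl10, had 3.03, 3.11 and 3.40 with TGF-β1, against 8.98, 2.28 and 4.79 with albumin. Again only the 8 h pair was far apart. Ifit3, an antiviral RNA-binding protein, had 2.77, 2.85 and 2.86 with TGF-β1, against 7.77, 5.07 and 2.85 with albumin, so here the 24 h albumin array was above the sham signal of 3.12 as well. Rsad2, the antiviral enzyme viperin, had 6.57, 6.36 and 6.13 with TGF-β1, against 11.34, 6.67 and 5.90 with albumin and 6.46 in the sham.

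Of the 21 tested of 30 genes of interferon response and antigen presentation, 12 were at least 2-fold lower with TGF-β1 at 8 h, 2 at 24 h and 0 at 48 h, where 1.4%, 1.9% and 1.25% of all genes were. At least 2-fold higher were 0, 0 and 2. The list median was −1.42, −0.12 and 0.17 at 8, 24 and 48 h. The mean signal of the list was 5.22 on the TGF-β1 array of 8 h, against 7.19 on the albumin array of 8 h, 4.83 on the deoxycholate array of 7 h and 5.24 in the sham. The high signal was thus on 1 animal's array, and no second albumin animal of 8 h was measured. Irf1, an interferon regulatory factor, was lower on every TGF-β1 array, with 4.79, 3.86 and 4.03, against 5.48, 5.24 and 4.80 with albumin (mean difference −0.95 ± 0.34). The class II antigen presentation gene RT1-Da had 3.92, 3.97 and 6.14 with TGF-β1, against 6.33, 3.96 and 6.55 with albumin. It was high at 8 h with albumin alone and at 48 h with both.

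**Figure D3:**
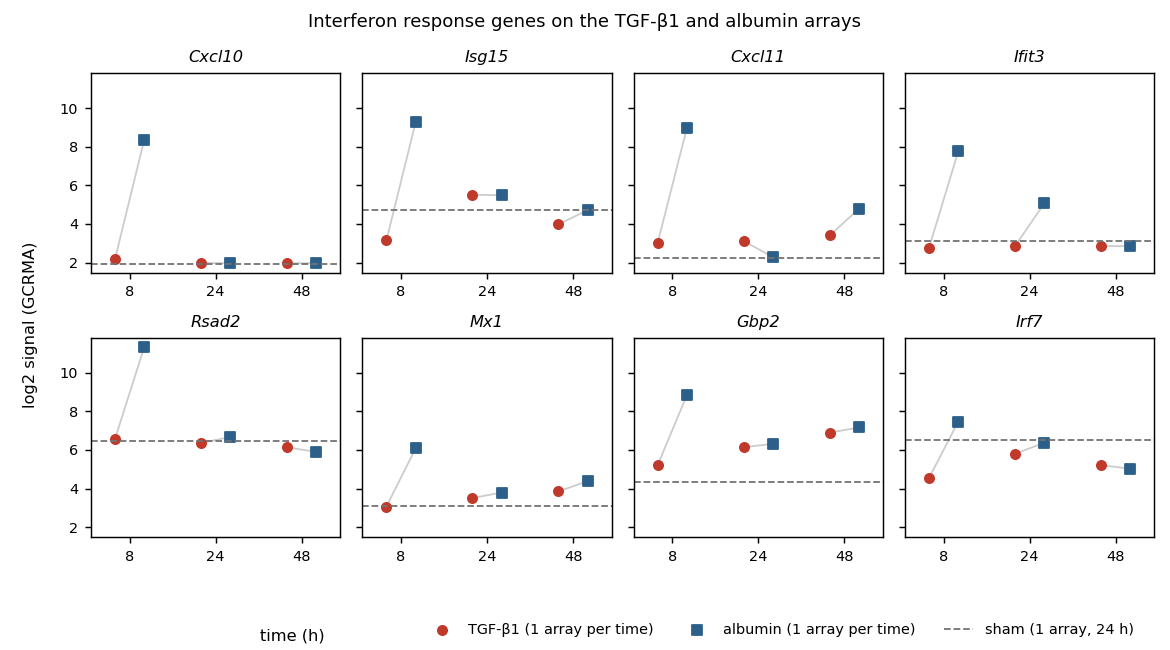
Log2 signal of 8 interferon response genes against time in hours, with TGF-β1 (red circles), albumin (blue squares; 1 array each) and the 1 sham array (dashed line). In every panel the albumin array of 8 h is the highest signal, and at 24 and 48 h most pairs lie close together.

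The promoters of interferon response genes printed here were chosen because they hold letters of the element through which such genes are known to be induced. Of the other promoters of the group, that of Irf7 also held a match and is not printed, and the rest held none. The sequences run from 250 bases before to 50 bases after the gene's start, in RefSeq's rat assembly GRCr8, with matches to GAAANNGAA on either strand in capitals.
Cxcl10 (chr14:15988816-15989115, plus strand): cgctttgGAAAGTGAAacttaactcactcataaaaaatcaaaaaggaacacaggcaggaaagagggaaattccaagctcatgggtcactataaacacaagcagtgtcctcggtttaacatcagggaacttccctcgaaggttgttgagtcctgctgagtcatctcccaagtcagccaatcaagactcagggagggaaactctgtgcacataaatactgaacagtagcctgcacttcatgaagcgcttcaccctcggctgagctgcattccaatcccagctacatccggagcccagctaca
Ifit3 (chr1:241527076-241527375, plus strand): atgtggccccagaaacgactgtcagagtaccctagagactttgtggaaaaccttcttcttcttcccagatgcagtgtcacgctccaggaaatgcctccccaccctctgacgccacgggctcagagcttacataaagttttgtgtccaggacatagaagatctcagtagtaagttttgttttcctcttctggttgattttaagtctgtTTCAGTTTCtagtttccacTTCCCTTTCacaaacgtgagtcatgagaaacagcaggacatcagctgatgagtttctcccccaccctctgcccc
Rsad2 (chr6:48788071-48788370, minus strand): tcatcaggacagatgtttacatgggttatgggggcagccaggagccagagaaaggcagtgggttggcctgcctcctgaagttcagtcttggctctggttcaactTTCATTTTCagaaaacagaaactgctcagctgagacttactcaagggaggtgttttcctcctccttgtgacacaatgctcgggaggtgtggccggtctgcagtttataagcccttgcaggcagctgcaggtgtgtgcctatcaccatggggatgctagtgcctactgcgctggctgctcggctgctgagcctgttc
Gbp2 (chr2:234005477-234005776, plus strand): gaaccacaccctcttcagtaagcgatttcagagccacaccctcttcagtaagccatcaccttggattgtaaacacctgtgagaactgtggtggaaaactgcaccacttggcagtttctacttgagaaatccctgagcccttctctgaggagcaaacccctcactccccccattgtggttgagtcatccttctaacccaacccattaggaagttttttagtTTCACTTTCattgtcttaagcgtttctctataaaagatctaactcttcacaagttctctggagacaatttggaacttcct
The match began 243 bases before the start in Cxcl10, 43 and 24 bases before it in Ifit3, 146 bases before it in Rsad2 and 30 bases before it in Gbp2. Of the 12 list members at least 2-fold lower at 8 h, 8 had a promoter in the table, and 4 of these 8 held the letters (50%); Cxcl10 and Cxcl11 stand on the cytokine list. Among all 33469 promoters of the same length, 3251 held them (9.71%), and among the promoters of tested genes 569 of 8401 (6.77%). Irf8, Mx1, RT1-Da and RT1-Bb held none in this window. The letters were not particular to this group: Cd14 and Fosb, 2 of the 8 promoters of genes lower at all 3 times, held them too (25%), and AP-1 letters, described next, were in 2 of the 8 promoters of the interferon group (25%). Of the 5 genes with the largest lower differences at 8 h, 4 had a promoter in the table, and 3 of these held the GAAANNGAA letters and 3 held AP-1 letters (75% each). The kappaB letters, also described next, were in 2 of these 4 (50%) and in 0 of the 8 promoters of the interferon group. These are matches of letters and not measured binding sites. The GTPase gene Gbp2 printed here had 5.22, 6.14 and 6.89 with TGF-β1, against 8.84, 6.31 and 7.16 with albumin, and Irf7, the fourth holder of a match, had 4.55, 5.80 and 5.21 with TGF-β1, against 7.47, 6.37 and 5.03 with albumin. In both genes the albumin array of 8 h was the highest of the 6.

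For the 10 genes 2-fold lower at all times, 8 promoters were in the table, and the same search was made for AP-1 (TGANTCA), the element of Fos and Jun factors, and for the kappaB consensus of NF-kappaB. AP-1 letters were held by 2 of the 8, Ccl7 and Slfn4 (25%), against 7.33% of all promoters and 4.51% of those of tested genes. A kappaB match was held by 1 of the 8, Ccl7 (12.5%), against 7.51% of all promoters and 9.52% of those of tested genes. Letters of CRE (TGACGTCA) and of CArG (CCWWWWWWGG, with W for A or T) were each held by 0 of the 8. Of all promoters 1.83% and 1.64% held them, and of those of tested genes 3.39% and 1.33%. The promoter of Ccl7 is printed as the 1 that held both AP-1 and kappaB letters. In capitals are AP-1 at 73 and kappaB at 59 bases before the start.
Ccl7 (chr10:67513845-67514144, plus strand): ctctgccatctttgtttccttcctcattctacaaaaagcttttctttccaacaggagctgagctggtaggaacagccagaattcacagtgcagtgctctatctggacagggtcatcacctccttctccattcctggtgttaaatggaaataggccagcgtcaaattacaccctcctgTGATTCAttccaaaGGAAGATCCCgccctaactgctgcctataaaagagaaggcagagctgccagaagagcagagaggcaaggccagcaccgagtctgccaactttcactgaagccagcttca

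Reactive astrocytes are the glial cells that enlarge and change their genes after injury. All 19 tested of 24 genes of that list had a lower mean with TGF-β1, 8 of them at all 3 times (17.1% of all genes were), with a median of −0.91 at 8 h, −0.48 at 24 h and −0.06 at 48 h. At least 2-fold lower were 9 genes at 8 h, 7 at 24 h and 1 at 48 h, where 1.4%, 1.9% and 1.25% of all genes were, and at least 2-fold higher were 0, 2 and 1. Cd44, the hyaluronan receptor, had 4.80, 7.76 and 7.29 with TGF-β1, against 7.18, 9.02 and 8.02 with albumin and 4.37 in the sham. The TGF-β1 array of 8 h was near the sham and the albumin array of 8 h was not; the gap then narrowed (mean difference −1.46 ± 0.38). Stat3, a factor that drives reactive astrocyte genes, had 8.54, 9.04 and 8.60 with TGF-β1, against 8.93, 9.73 and 9.29 with albumin and 7.48 in the sham (−0.59 ± 0.14). The TGF-β1 arrays of Stat3 lay between the sham and the albumin array of their time. Sphk1, a sphingosine kinase, had a mean difference of −1.29 ± 0.50, and Steap4, a metalloreductase, one of −0.89 ± 0.36. Gfap, the filament that defines astrocytes, had 11.83, 13.60 and 13.94 with TGF-β1, against 12.28, 13.70 and 13.85 with albumin and 12.07 in the sham. Vim, its partner filament, had 9.87, 11.02 and 12.60 with TGF-β1, against 9.96, 11.48 and 12.40 with albumin and 8.80 in the sham. Both filaments had their highest signal at 48 h after either agent, and their differences lay between −0.46 and 0.20 log2 units. Lcn2, a secreted iron-binding protein named after its values were seen, had 5.40, 5.92 and 8.71 with TGF-β1, against 7.34, 9.27 and 6.86 with albumin. It was lower with TGF-β1 at 8 and 24 h and higher at 48 h. Not one of the 19 passed the test.

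Genes with which astrocytes take up potassium, water and glutamate ran the other way: 13 of 15 tested had a higher mean with TGF-β1, 6 of them at all 3 times where 23.8% of all genes did, with a list median of 0.07, 0.15 and 0.29. Gjb6, which encodes a gap junction connexin of astrocytes, had 10.00, 8.27 and 8.91 with TGF-β1, against 9.85, 7.37 and 8.04 with albumin (mean difference 0.64 ± 0.27). Gjb6 had its wider gaps at 24 and 48 h. Gjb2, a connexin also of meningeal cells, had 6.26, 5.78 and 7.76 with TGF-β1, against 6.49, 3.22 and 6.94 with albumin, where the albumin array of 24 h was the low one. Aldh1l1, a folate enzyme used as an astrocyte marker, had a mean difference of 0.60 ± 0.25. The genes for water, coupling and glutamate uptake had nearly equal signals. The water channel Aqp4 had 12.97, 13.11 and 13.37 with TGF-β1, against 12.82, 12.75 and 13.37 with albumin. The gap junction gene Gja1 had 13.66, 13.41 and 13.79 with TGF-β1, against 13.63, 12.98 and 13.69 with albumin. The glutamate transporter Slc1a2 had 8.01, 7.07 and 7.31 with TGF-β1, against 8.05, 7.00 and 7.02 with albumin. These 3 differed by 0.43 or less at every time. The same held for the glutamate transporter Slc1a3, with 12.70, 12.77 and 12.82 with TGF-β1, against 12.70, 12.52 and 13.00 with albumin. The potassium channel Kcnj10 was below the filter. None of the 15 passed.

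Genes of the TGF-β pathway had list medians of 0.05 to 0.27 for ligands, receptors and SMADs. Among 9 tested of 19 ligand and latency genes, 6 had a higher mean with TGF-β1 and 3 a lower one (median 0.27), among 7 of 12 receptors 5 and 2 (0.06), and among 13 of 17 SMADs and their regulators 7 and 6 (0.05). Tgfb1, the ligand's own gene, had 4.17, 4.16 and 5.21 with TGF-β1, against 3.96, 4.63 and 5.07 with albumin, and 3.58 in the sham. The ligand Tgfb2 had 7.81, 8.20 and 7.74 with TGF-β1, against 7.79, 7.54 and 8.14 with albumin. Neither ligand was on the same side at all 3 times. The type 1 receptor Tgfbr1 had 8.70, 9.01 and 10.46 with TGF-β1, against 8.39, 8.76 and 10.07 with albumin, a mean difference of 0.32 ± 0.19. Bmpr2, the type 2 receptor of bone morphogenetic proteins, was lower on each TGF-β1 array (−0.41 ± 0.14). Among the SMADs, Smad1, Smad2 and Smad3 were lower on each TGF-β1 array. Smad3, a SMAD that TGF-β receptors activate, had 7.81, 7.53 and 7.00 with TGF-β1, against 8.21, 8.06 and 8.26 with albumin (−0.73 ± 0.35), and Smad1, of the bone morphogenetic branch, −0.38 ± 0.17. The inhibitory Smad7 had 7.00, 7.10 and 6.90 with TGF-β1, against 6.58, 7.17 and 6.75 with albumin, so its arrays crossed at 24 h. Zfyve9, an anchor that presents SMADs to the receptor, had a mean difference of 0.48 ± 0.13, which was −0.38 when all its probe sets were averaged. Tgfb3 was below the filter, and for Tgfbr2 no probe set named that gene alone.

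Of 15 tested of 20 TGF-β target genes, 4 had a higher and 11 a lower mean with TGF-β1 than with albumin, with a median of −0.32. The ID genes, which block differentiation factors, were the higher ones and were furthest apart at 24 h. Id1 had 8.69, 8.58 and 9.19 with TGF-β1, against 8.59, 7.23 and 9.01 with albumin and 8.48 in the sham. Id3 had 9.52, 9.87 and 10.59 with TGF-β1, against 9.49, 8.77 and 10.50 with albumin, and 9.53 in the sham. Id4 had 10.33, 10.19 and 9.95 with TGF-β1, against 9.76, 8.92 and 10.02 with albumin, and 10.41 in the sham. In all 3 the albumin array of 24 h was the lowest of the 6, below the sham and further from it than the TGF-β1 array of 24 h. Postn, the matrix protein periostin and a known TGF-β target, was lower on each TGF-β1 array, with 6.57, 6.94 and 7.97 against 7.04, 7.36 and 8.26 with albumin (−0.39 ± 0.14). No pathway gene passed.

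**Figure D4:**
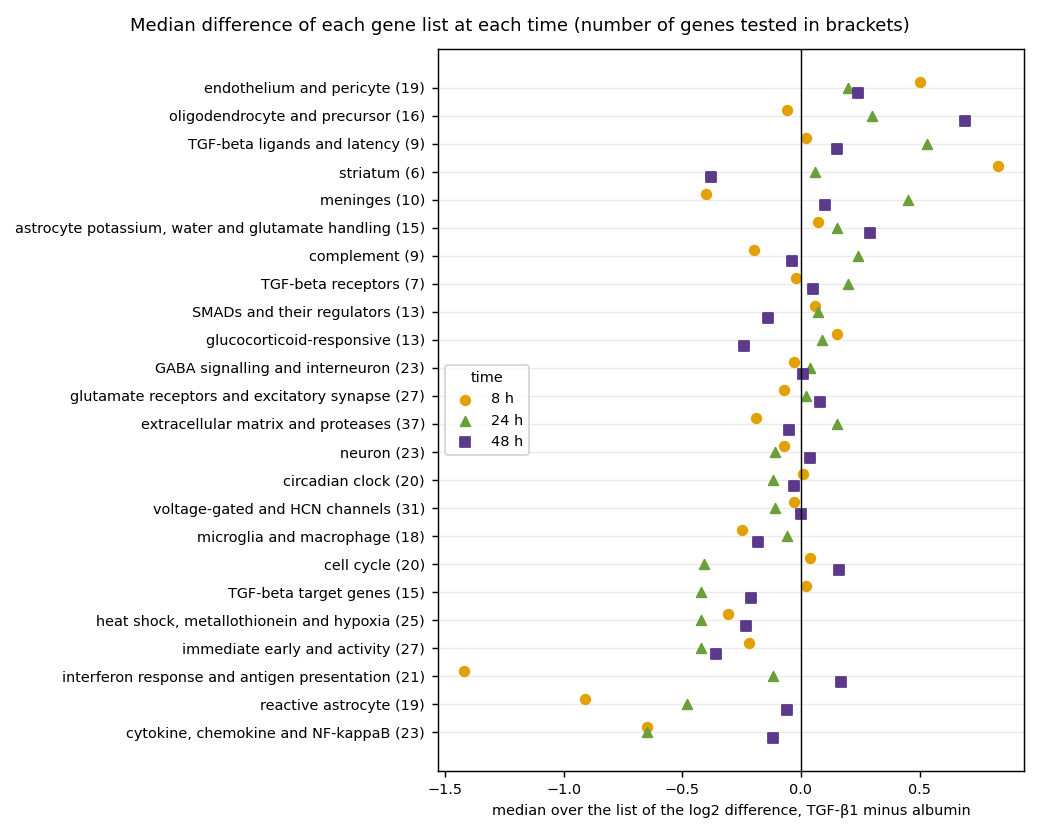
Median log2 difference, TGF-β1 minus albumin, of each gene list with at least 5 tested genes at 8 h (circles), 24 h (triangles) and 48 h (squares); the number of tested genes stands beside each name. The interferon list at 8 h (−1.42) and the reactive astrocyte list at 8 h (−0.91) are furthest below 0, and the neuronal lists lie between −0.11 and 0.08.

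Microglia and macrophage genes were mixed. Of 18 tested, 7 had a higher and 11 a lower mean with TGF-β1 (median −0.07). P2ry12, described above, and Cx3cr1, both receptors of resting microglia, were among the higher ones. Cx3cr1, named after its values were seen, had 5.39, 5.10 and 5.86 with TGF-β1, against 4.996, 4.10 and 5.92 with albumin. It was thus not higher at 48 h. Gpnmb and Cybb, genes of activated phagocytes, were among the lower ones. Genes of resting and of activated cells were not compared as classes. Gpnmb, a glycoprotein of lipid-laden phagocytes, had 7.90, 9.81 and 11.60 with TGF-β1, against 8.49, 11.85 and 11.69 with albumin and 6.97 in the sham (mean difference −0.91 ± 0.34). The albumin array had reached its late level by 24 h and the TGF-β1 array by 48 h. Cybb, the catalytic subunit of the phagocyte oxidase, had 2.37, 3.06 and 6.38 with TGF-β1, against 2.97, 4.43 and 7.08 with albumin (−0.89 ± 0.25). The 7 markers of microglia and macrophages, P2ry12 and Cx3cr1 among them, averaged 5.05, 5.60 and 6.99 with TGF-β1, against 5.04, 4.84 and 7.15 with albumin. Over the 18 genes tested the 24 h mean was 6.67 with TGF-β1, against 6.73 with albumin, with 2 genes at least 2-fold higher and 4 lower.

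Endothelium and pericyte genes were higher with TGF-β1 in 15 of 19 tested, 9 of them at all 3 times (23.8% of all genes were), with a list median of 0.50, 0.20 and 0.24. Ocln, the junction protein occludin that seals the barrier, had 5.41, 5.53 and 7.10 with TGF-β1, against 4.60, 4.37 and 6.38 with albumin and 6.28 in the sham. On both series the 8 and 24 h arrays were below the sham and the 48 h array above it, with albumin the lower at each time (mean difference 0.89 ± 0.18, adjusted p = 0.493). Tek, the endothelial receptor of the angiopoietins, had 7.73, 8.03 and 8.28 with TGF-β1, against 6.89, 7.54 and 7.89 with albumin and 8.11 in the sham. The efflux pump Abcb1a had 6.12, 6.20 and 6.77 with TGF-β1, against 5.21, 5.52 and 6.61 with albumin, and 6.46 in the sham. For both genes the largest gap was at 8 h and the smallest at 48 h. Mfsd2a, the lipid transporter of barrier endothelium, was higher by 0.38, 0.37 and 0.42. Endothelial markers averaged 7.60, 7.45 and 7.73 with TGF-β1, against 6.98, 7.57 and 7.59 with albumin; they were higher with TGF-β1 at 8 h and lower at 24 h. Their part in the differences of the barrier genes was not tested.

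Oligodendrocyte genes were furthest apart at 48 h. Of 16 tested, 15 had a higher mean with TGF-β1 and 4 were higher at all 3 times, a share close to the 23.8% of all genes. The list median was −0.06, 0.30 and 0.69 at 8, 24 and 48 h, with 4 genes at least 2-fold higher at 48 h (2.04% of all genes were). Mag, a myelin adhesion protein, had 11.57, 11.50 and 11.87 with TGF-β1, against 11.32, 11.28 and 10.30 with albumin and 11.02 in the sham. Opalin, a myelin membrane protein, had 9.29, 9.13 and 9.49 with TGF-β1, against 8.99, 8.62 and 8.13 with albumin and 9.01 in the sham. In both the albumin array of 48 h was the lowest of the 6. The deoxycholate array of 48 h had 10.30 for Mag and 8.54 for Opalin. Over the 16 genes the mean signal at 48 h was 11.09 with TGF-β1, 10.4 with albumin and 10.53 with deoxycholate. The sham of 24 h had 10.6, so at 48 h the TGF-β1 array was the one furthest from it. Mean differences were 0.68 ± 0.28 for Mag and 0.72 ± 0.21 for Opalin. Oligodendrocyte markers averaged 12.84, 12.77 and 13.07 with TGF-β1, against 12.82, 12.54 and 12.24 with albumin. A different share of white matter in the sampled tissue was not tested.

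Immediate early genes, which stimuli such as neuronal firing or injury switch on within minutes, had a lower mean with TGF-β1 in 21 of 27 tested, 11 of them at all 3 times (17.1% of all genes were). The list median was −0.22, −0.42 and −0.36 at 8, 24 and 48 h. At these times 2, 9 and 9 genes were at least 2-fold lower, where 1.4%, 1.9% and 1.25% of all genes were. At least 2-fold higher were 0, 1 and 0. Egr4, a zinc finger factor, had 7.30, 6.64 and 6.24 with TGF-β1, against 7.96, 8.06 and 7.94 with albumin and 8.36 in the sham. Unlike Fosb, it lay below the sham with both agents. Myc, a growth regulator, had 4.69, 4.80 and 4.19 with TGF-β1, against 5.48, 6.30 and 4.60 with albumin, and 3.72 in the sham. Mean differences were −1.26 ± 0.52 for Egr4 and −0.90 ± 0.34 for Myc. Heat shock, metallothionein and hypoxia genes had a lower mean with TGF-β1 in 21 of 25 tested. Of these, 17 were lower at all 3 times, where 17.1% of all genes were. The median of their mean differences was −0.34, where that of all tested genes was 0.0315. By time the list median was −0.31, −0.42 and −0.23. Hspa1a, the inducible chaperone HSP70, had 7.21, 3.63 and 5.52 with TGF-β1, against 7.91, 9.001 and 5.08 with albumin. The difference of −5.37 at 24 h lay between a TGF-β1 array below the sham signal of 5.78 and an albumin array above it. Gadd45a, a stress gene that slows the cell cycle, had 9.03, 8.22 and 9.01 with TGF-β1, against 9.34, 10.29 and 9.64 with albumin and 6.86 in the sham (mean difference −1.004 ± 0.34). Pfkfb3, a regulator of glycolysis, had a mean difference of −1.03 ± 0.39 and Hspa5, the chaperone of the endoplasmic reticulum, one of −0.40 ± 0.14. No member of either list passed.

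Lists of neurons had medians near that of all genes. The median of the mean differences was −0.04 for 23 neuron genes, 0.02 for 27 genes of glutamate receptors and excitatory synapses, 0.03 for 23 genes of GABA signalling and interneurons and −0.06 for 31 channel genes. None of these genes passed. Gria1, an AMPA receptor subunit, had 8.37, 8.48 and 7.92 with TGF-β1, against 9.14, 9.40 and 8.40 with albumin (mean difference −0.72 ± 0.27). Grm5, a metabotropic glutamate receptor, had 8.64, 8.81 and 6.96 with TGF-β1, against 8.99, 9.48 and 9.43 with albumin, where the TGF-β1 array of 48 h was the low one. Grin2c, an NMDA receptor subunit, was higher by 0.89, 0.28 and 0.51. These receptor genes differed in sign among themselves. Kcnq3, a subunit of the M-type potassium channel, had 7.08, 6.58 and 6.33 with TGF-β1, against 6.57, 6.28 and 5.44 with albumin (0.57 ± 0.14). Cacnb4, a calcium channel subunit, was lower on every TGF-β1 array (−0.67 ± 0.18). Among the clock genes, Per1 was higher (0.84 ± 0.21) and the nuclear receptor Rora lower (−0.82 ± 0.21) on each TGF-β1 array.

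Several genes of matrix and meninges were among those named for the largest higher differences at 24 h, which is how they were chosen. Ogn, a small leucine-rich matrix protein, had 6.52, 6.35 and 6.22 with TGF-β1, against 7.80, 3.96 and 6.76 with albumin, and 3.76 in the sham; the deoxycholate array of 24 h had 3.02. Col3a1, a fibrillar collagen, had 5.38, 6.23 and 8.82 with TGF-β1, against 5.98, 3.93 and 8.79 with albumin, 3.95 with deoxycholate at 24 h and 4.21 in the sham. Lox, the enzyme that cross-links collagen, had 4.61, 6.04 and 5.96 with TGF-β1, against 5.68, 3.67 and 6.71 with albumin, 4.59 with deoxycholate at 24 h and 2.32 in the sham. In these 3 genes the albumin array of 24 h was the lowest of the 6. For Ogn and Col3a1 it lay near the sham and the TGF-β1 array of 24 h well above it, and for Lox both were above the sham. That sham is 1 array and an uncertain baseline for these genes. In the second set the sham animals averaged 9.16 for Ogn, 9.65 for Col3a1 and 7.53 for Lox. The albumin animals of that set were below them, at 3.77, 6.84 and 5.68. Slc6a20a, an amino acid transporter, was 2.31 higher with TGF-β1 at 24 h. The 7 meningeal markers averaged 5.98, 6.09 and 7.27 with TGF-β1, against 6.48, 5.04 and 7.42 with albumin. Their average was thus higher with TGF-β1 at 24 h alone. Over the 10 tested genes of the meningeal list, the median difference was −0.4, 0.45 and 0.1 at 8, 24 and 48 h. Dcn, the proteoglycan decorin, was lower on each TGF-β1 array (−0.74 ± 0.21). Of 37 matrix and protease genes, 17 had a higher and 20 a lower mean, and the list median was −0.19, 0.15 and −0.05 at 8, 24 and 48 h. At 24 h 5 of the 37 were at least 2-fold higher (1.21% of all genes were) and 5 at least 2-fold lower (1.9%). Col6a3, a collagen chain, had a mean difference of −0.87 ± 0.17, and the proteases Adamts1 and Adamts4 had −1.38 ± 0.45 and 0.59 ± 0.18. How much meningeal tissue each sample held was not tested.

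**Figure D5:**
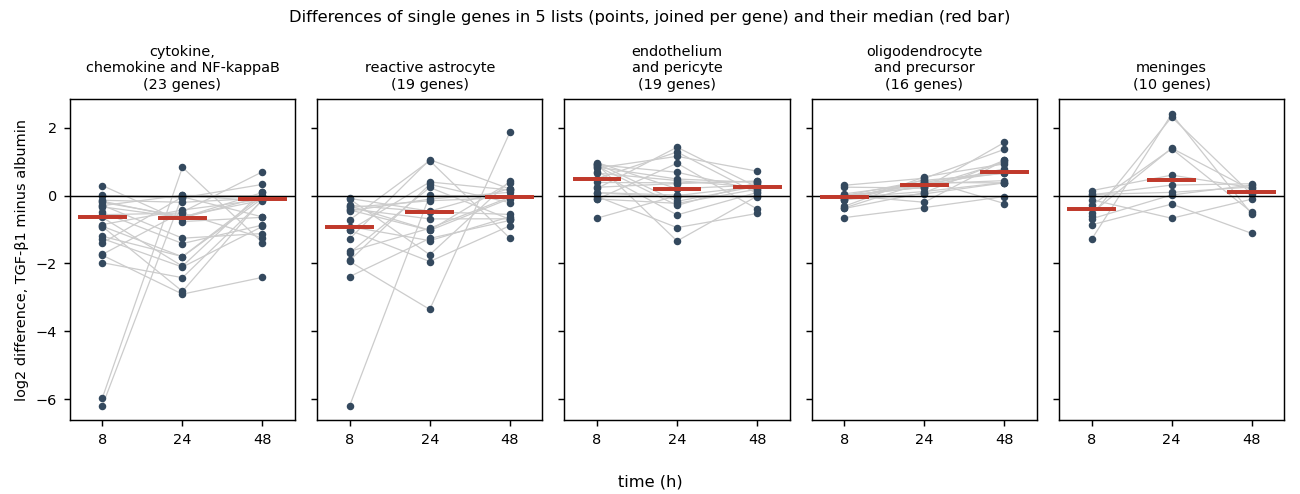
Log2 difference, TGF-β1 minus albumin, of every tested member of 5 gene lists at 8, 24 and 48 h; points of 1 gene are joined, and red bars are list medians. The medians of the cytokine list (−0.65, −0.65 and −0.12) and of the reactive astrocyte list (−0.91, −0.48 and −0.06) come closer to 0 with time, that of the oligodendrocyte list goes to 0.69 at 48 h, and the meningeal list is highest at 24 h.

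At 48 h the largest differences lay in other genes. The class I antigen genes RT1-CE12 and RT1-CE10, members of 1 multigene family whose probes may read each other, were 5.24 and 5.15 higher with TGF-β1. RT1-CE12 had 7.47, 7.88 and 9.35 with TGF-β1, against 7.92, 8.03 and 4.10 with albumin. Of these 6 only the albumin array of 48 h was low, under the sham signal of 7.50 and the 8.95 of deoxycholate at 48 h. That low signal rests on 1 animal, and both genes also varied between animals of 1 treatment. Among the sham animals of the second set the standard deviation was 2.26 for RT1-CE12 and 2.75 for RT1-CE10. Camk2a, the calcium-dependent kinase of excitatory synapses, had 11.59, 11.54 and 11.22 with TGF-β1, against 11.69, 11.58 and 8.34 with albumin and 12.22 in the sham. Its deoxycholate array of 48 h, at 8.12, was as low as the albumin array of that time. Pik3r1, a regulatory subunit of PI3 kinase, had 5.89, 5.54 and 3.85 with TGF-β1, against 7.58, 4.88 and 9.06 with albumin and 5.89 in the sham. Here the albumin array of 48 h was high, and the TGF-β1 array was near the 3.93 of deoxycholate at 48 h. At 48 h the difference was −2.86 for Egr2, an activity-induced zinc finger factor, and −2.79 for Inmt, an amine methyltransferase. At 8 h the largest difference in the higher direction was in Pxmp4, a peroxisomal membrane protein, with 8.78, 7.40 and 7.43 with TGF-β1, against 4.27, 7.31 and 7.78 with albumin and 4.72 in the sham. The striatal gene Rgs9 was 2.10 higher with TGF-β1 at 8 h, and 5 striatal markers averaged 6.74 on that array, against 5.16 on the albumin array of 8 h and 4.73 to 4.89 on the arrays of 24 and 48 h. The part of deeper tissue in the TGF-β1 sample of 8 h was not tested.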

How the data were processed

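The 6 arrays were read from the table of log2 values that the authors deposited. Per the submitters' processing notes the tool was GCRMA, of a version not given in the sources used here, which subtracts background, equalises the arrays by quantiles and gives 1 value per probe set. Tests and differences were taken within a set of arrays. Where signals or shares of the second set stand beside those of set 1, a shift between the sets was not tested. The RNA was total RNA extracted with Trizol and labelled with biotin, per the labels.

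Of 31099 probe sets, 57 were controls, 20837 named 1 gene, 425 several and 9780 none. Symbols came from the platform table, updated to assembly GRCr8 by Entrez identifier (20769 probe sets) or accession (2), while 66 kept their symbol. Each of 14224 genes was represented by 1 probe set, that of highest mean signal on the 19 arrays (4529 genes had several), and tested where above log2 4 on at least 2 arrays of set 1.

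An additive model of agent and time was fitted in R 4.3.3 by limma 3.58.1 (lmFit, eBayes, no trend, not robust) on the 9 treated arrays of set 1, with 4 residual degrees of freedom, two-sided, with Benjamini-Hochberg adjustment over 10022 genes and a threshold of 0.05. Time was a block, as the labels tie the arrays of an agent to times (deoxycholate at 7 h was set with 8 h); no time had a replicate, so the spread is the departure from additivity. SE is the moderated standard error. Single times were compared by log2 difference, counted at 2-fold, with no test. Precision is limited by the small number of arrays. The code was tested on simulated data. Tables and plots used Python 3.11.15 with matplotlib 3.10.9, pandas 2.3.3 and numpy 2.4.6.

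The members and gene lists were chosen with earlier results of these data known. The 27 lists are those named in the report with complement, cell cycle, glucocorticoid-responsive, circadian clock, striatum, choroid plexus and red cell, and a gene may stand on several. Named genes were the 12 per direction with the largest mean difference past the threshold and 1 sign at all times, filled up by smallest p among those of at least 2-fold mean difference; for each time the 5 largest differences per direction where the higher array exceeded log2 6; up to 4 members of each list by smallest p; and 19 genes whatever their values. That made 160 genes, of which 156 were tested, 2 were below the filter and 2 had no probe set naming them alone. Promoters were read from RefSeq (GRCr8) and searched on both strands. Alternatives are listed with their effects in the closing section.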

Additional observations from a re-analysis of the deposited data

Results flagged for a closer look

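In 8 genes the TGF-β1 minus albumin difference was at least 2-fold in one direction at one time and at least 2-fold in the other at another time. With 1 array per agent and time these reversals were not tested. The difference at 24 h less that at 8 h was 3.68 for Ogn (2.40 and −1.29) and 3.44 for Lox (2.37 and −1.07). It was 4.05 for RGD1309362 (2.37 and −1.68), a gene known by its identifier alone. The difference at 8 h less that at 24 h was 3.98 for Sgcb, a sarcoglycan of muscle and vessel walls (1.56 and −2.42). The difference at 8 h less that at 48 h was 4.31 for Prss35, a serine protease-like gene (1.20 and −3.11). The difference at 48 h less that at 8 h was 4.39 for Creg2, a secreted glycoprotein of brain (3.12 and −1.27). The difference at 48 h less that at 24 h was 3.43 for LOC100911253 (2.43 and −1.01). It was 5.21 for Lcn2 (1.85 and −3.35), a gene chosen after its values were seen.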

How the results depend on the processing

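The count of 0 genes at an adjusted p under 0.05 held with every alternative except 1: without the arrays of 48 h, 1 gene passed, Slfn4, which was then above the filter level on the albumin arrays alone. Over leaving out single arrays or times the count ran between 0 and 1, and the number of genes at an unadjusted p under 0.05 between 412 (without the 8 h arrays) and 1186 (without deoxycholate at 48 h); without the TGF-β1 array of 8 h it was 501. The paired design was tested by dropping time: with no replicate block, 0 genes passed and 513 reached an unadjusted p under 0.05, against 877 with it. With the 6 TGF-β1 and albumin arrays alone, 2 residual degrees of freedom remained, 0 genes passed and 1431 reached that level. With values below 4 raised to 4, 0 genes in place of 1 were at least 2-fold higher at all 3 times, since Eva1a on albumin lay below 4. Averaging the probe sets of a gene turned the mean difference of Zfyve9 to −0.38. Of 3245 values of the 156 named genes under the alternatives, 68 had the opposite sign, in 31 genes; of these, Zfyve9 alone has its mean difference given above, and the others are given by their arrays or not at all. Counts at single times stayed within 1.5 times, but with array medians made equal the 48 h count was 154 higher and 160 lower, in place of 204 and 125. The lack of replicates limits every result: a difference at 1 time rests on 1 animal per agent, and signals under log2 4 are near background, so differences from them are uncertain in size.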
